A study of Mus musculus with 4 samples.

Results

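Imprinted genes are expressed mainly from the copy inherited from 1 parent. This set held 37 of them, chosen by name from the 48795 genes of the deposited table, leaving out the H19-Igf2 and Peg10-Asb4 clusters. Each of the 37 names matched 1 row. The genes fall into the Peg3, Dlk1-Dio3, Kcnq1ot1, Snrpn, Gnas, Igf2r and Grb10 domains, the overlapping neighbours Nnat and Blcap and Zrsr1 and Commd1, and 8 genes taken singly.

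The samples were the telencephalon, the embryonic forebrain, of C57BL/6 mouse embryos at embryonic day 14. The 2 control libraries came from embryos with a loxP-flanked (floxed) Ctcf gene. The 2 Ctcf-null libraries came from embryos with floxed Ctcf and NestinCre, a recombinase driven by Nestin sequences and active in neural progenitors, so blood, vessel and microglial cells in the same tissue are not its target. All embryos are of 1 inbred strain, so the 2 parental copies cannot be told apart, and the values are totals over both. The labels do not state whether each library is a separate embryo, so the spread behind the p-values is that of these 4 libraries and may be technical.

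In an imprinted domain a control region carries DNA methylation on 1 parental copy only, and that mark decides which genes of the domain each copy transcribes. CTCF binds several such regions when they are unmethylated and can keep an enhancer from reaching a promoter beyond it. Many domains pair a long non-coding RNA from 1 copy with protein-coding genes from the other. Imprinted genes act in embryonic growth, placental function and brain development.

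Depth was 25519331 to 43812558 reads per library. Ctcf itself had normalized read counts of 436.72 and 1133.21 in controls of pairs 1 and 2, against 38.89 and 61.96 with Cre (log2 fold change -3.81, SE 0.16, limma adjusted p = 3.3e-12). The telencephalic marker Emx1 was present in every library. The 2 pairs stood far apart. Across the listed genes with values above 0 in every library, the median absolute log2 difference between the 2 controls was 0.76, and between the 2 Ctcf-null libraries 0.76, against a median absolute fold change between genotypes of 0.18. Libraries were therefore compared within pairs. Without the block of pairs, limma called 0 of the 22158 tested genes (170 at an unadjusted p under 0.05) and edgeR also 0 (174), so every call below rests on the pairing.

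In Ctcf-null telencephalon 3 of the 36 tested imprinted genes rose (Peg3, Mest and Kcnq1ot1) and 7 fell (Dio3, Rasgrf1, Commd1, Blcap, Nnat, Grb10 and Inpp5f). The changes ran from a fall of 1.32 on the log2 scale for Dio3 (2.5-fold) to a rise of 0.53 for Peg3 (1.44-fold). Over all tested genes 3.67% rose and 10.1% fell. The 3 rises were 8.33% of the imprinted genes tested and the 7 falls 19.4%, so most of the set did not pass. Phlda2, a regulator of placental growth, was not tested for its low counts. The median fold change of the 36 was -0.06, against -0.07 for all tested genes. In the paired edgeR test on recovered reads, which called 2643 of 22158 genes (4.8% higher, 7.13% lower), the same genes were called except Inpp5f, and the medians were 0.00 and -0.02. The balance of calls over all genes moved with scaling: rises were 26.7% of the calls here, 40.2% in that edgeR test and 56.0% with upper-quartile factors, which moved the median of all genes by 0.10.

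**Figure D1:**
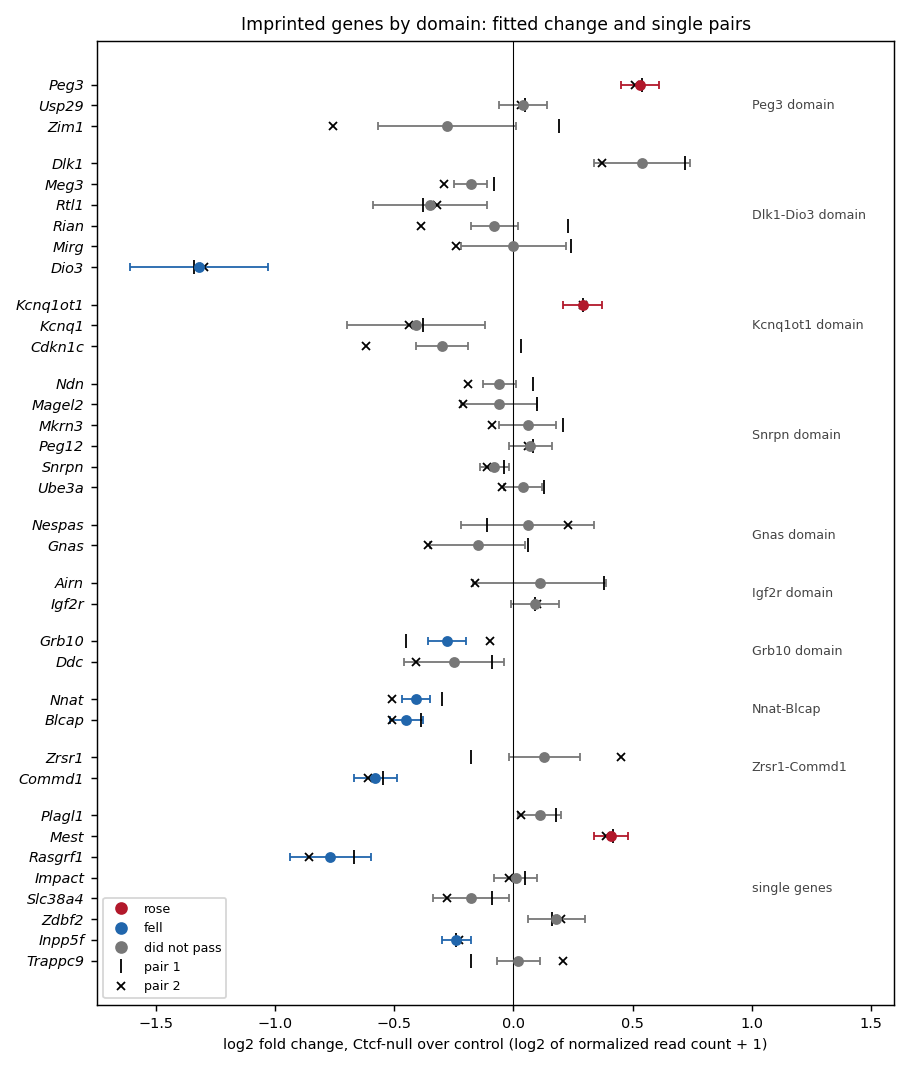
Fitted log2 fold change of the 36 tested imprinted genes, Ctcf-null over control, grouped by domain. Circles are the fit with bars of 1 standard error, vertical ticks are pair 1 and crosses are pair 2; Peg3, Mest and Kcnq1ot1 lie right of 0, and the 7 genes that fell lie left of it, with Dio3 farthest at -1.32.

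The Peg3 domain on chromosome 7 held the clearest rise. Peg3 (6703892 to 6730431, minus strand) encodes a zinc finger DNA-binding protein transcribed from the paternal copy. Its normalized read count was 1351.95 and 1202.01 in the controls of pairs 1 and 2, and 1972.12 and 1710.56 in their Ctcf-null partners. Both Ctcf-null libraries lay above both controls, a separation found upward for 6.45% of all tested genes, and among the 36 tested genes of the set for Peg3 alone. The log2 fold change was 0.53 (SE 0.08, limma adjusted p = 8.3e-05), a 1.44-fold rise. Usp29, a gene of the ubiquitin protease family, is paternally expressed too and starts on the other strand next to Peg3. It was at 726.67 and 474.05 in the control libraries and at 750.95 and 484.74 in the Ctcf-null ones, which is nearly level within each pair. Its log2 fold change of 0.04 (95% interval -0.16 to 0.24) did not pass (limma adjusted p = 0.84). The log2 ratio of Peg3 to Usp29 was higher in Ctcf-null by 0.50 in pair 1 and 0.48 in pair 2, a difference not tested further. Zim1, a maternally expressed zinc finger gene, was at 36.47 and 50.03 in the control libraries and at 41.72 and 29.16 in the Ctcf-null ones, higher in pair 1 and lower in pair 2.

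The stretch that separates the starts of Peg3 and Usp29 is shown because 1 neighbour rose and the other did not pass. It runs from 6730432 to 6730577 on chromosome 7 (GRCm38.p6), free of annotated exons, and is printed on the strand of Peg3. The promoters of the other genes that rose, Mest and Kcnq1ot1, and of Rasgrf1, which fell, stand beside it. Each is the part of the 250 bases before a RefSeq start that touches no annotated exon. Capitals mark CpG dinucleotides, the sites that carry DNA methylation.
Peg3 to Usp29, chr7:6730432-6730577, minus strand: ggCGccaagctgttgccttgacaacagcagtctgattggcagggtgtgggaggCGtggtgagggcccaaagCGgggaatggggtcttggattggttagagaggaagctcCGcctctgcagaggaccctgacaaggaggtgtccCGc
Mest, chr6:30737800-30738049, plus strand: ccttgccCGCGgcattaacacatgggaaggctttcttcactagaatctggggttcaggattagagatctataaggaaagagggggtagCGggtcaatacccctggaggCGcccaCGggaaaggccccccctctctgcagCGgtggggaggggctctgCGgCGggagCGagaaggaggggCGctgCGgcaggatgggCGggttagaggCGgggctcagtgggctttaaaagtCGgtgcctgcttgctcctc
Kcnq1ot1, chr7:143296550-143296797, minus strand: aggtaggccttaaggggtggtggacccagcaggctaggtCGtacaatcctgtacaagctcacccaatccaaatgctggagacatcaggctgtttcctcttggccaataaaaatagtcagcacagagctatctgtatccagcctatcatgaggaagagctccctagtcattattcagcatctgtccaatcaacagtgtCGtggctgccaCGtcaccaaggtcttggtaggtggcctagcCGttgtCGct
Rasgrf1, chr9:89909525-89909774, plus strand: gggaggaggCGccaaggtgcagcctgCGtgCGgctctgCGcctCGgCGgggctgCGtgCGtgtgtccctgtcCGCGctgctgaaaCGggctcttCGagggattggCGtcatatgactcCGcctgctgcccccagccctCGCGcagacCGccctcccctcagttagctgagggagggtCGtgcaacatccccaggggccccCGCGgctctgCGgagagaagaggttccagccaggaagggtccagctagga
These windows hold 5 CpG for Peg3, 14 for Mest, 5 for Kcnq1ot1 and 21 for Rasgrf1, counts over 146, 250, 248 and 250 bases. The median was 10 in the 46 windows of the listed genes and 6 in all 32851 windows of 250 bases.

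Matches to 3 short motifs were counted in the same windows, on both strands. AGGNGGC, the inner letters of the CTCF site, was found in 21 of the 46 windows, before 17 of the 31 genes with an entry, and in 25.0% of all windows. In the stretches printed above it occurs once before Kcnq1ot1, from base 227, and once before Rasgrf1, from base 4, and not in the Mest stretch or between Peg3 and Usp29. Another RefSeq window of Mest, not printed because it touches an annotated Mest exon, holds 1 match. The letters TGCCGC are bound when methylated by ZFP57, a protein that keeps imprints. They were found in 6 of the 46 windows and in 8.68% of all windows. The 5 listed genes with such a match were Zim1, Meg3, Plagl1, Mest and Zdbf2. The Mest window above holds 2 of these matches, starting at bases 9 and 184, and overlaps another Mest window that was counted too. GCCATNTT, a core of the YY1 site, was found in 3 of the 46 windows, before Mkrn3, Ube3a and Slc38a4, and in 3.91% of all windows. In the 46 windows 1 couple of matches of different motifs overlapped. A match shows the letters only, not binding.

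In the Kcnq1ot1 domain of distal chromosome 7 the non-coding RNA rose, and of the listed protein-coding genes the 2 tested, Kcnq1 and Cdkn1c, did not pass. Of protein-coding genes around it taken from the other lists, Cd81 (-0.28, limma adjusted p = 0.0061), Cars (-0.26, 0.037) and Nap1l4 (-0.19, 0.047) fell and Osbpl5 (0.40, 0.018) rose. Paired edgeR did not call Cars (adjusted p = 0.10) or Nap1l4 (0.21). Tssc4, Tnfrsf23, Tspan32, Trpm5 and Slc22a18, also from those lists, were tested and did not pass (limma adjusted p from 0.13 to 0.63). Kcnq1ot1 (143203458 to 143296549, minus strand) is a long RNA transcribed from the paternal copy, antisense within Kcnq1, that silences neighbours on that copy. It was at 2021.7 and 499.06 normalized counts in the control libraries and 2475.58 and 612.3 in the Ctcf-null ones. It was higher within each pair by 0.29, while the pairs themselves lay about as far apart in both genotypes, so the groups overlapped. The fit gave 0.29 (SE 0.08, limma adjusted p = 0.021), and DESeq2 with the block gave 0.32 without a call (adjusted p = 0.18). Kcnq1, a potassium channel gene, was at 44.47 and 30.02 against 33.94 and 21.87 (log2 fold change -0.41, 95% interval -1.01 to 0.19). The log2 ratio of Kcnq1ot1 to Kcnq1 was higher in Ctcf-null by 0.67 and 0.73 in the 2 pairs. The labels give no strand, and reads of overlapping antisense genes cannot be told apart, so this ratio is uncertain. Cdkn1c, the cell cycle inhibitor p57, was at 870.76 and 2163.86 in the control libraries and 887.42 and 1405.62 in the Ctcf-null ones, level in pair 1 and lower in pair 2 (log2 fold change -0.30, limma adjusted p = 0.079). With no filter on low values Cdkn1c passed. Phlda2 had 0 and 5 reads in the control libraries and 5 and 9 in the Ctcf-null ones, too few for a comparison.

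In the Dlk1-Dio3 domain of chromosome 12 the gene at its far end fell, while the other 5 did not pass. Dio3 (110279068 to 110281097, plus strand) encodes the deiodinase that inactivates thyroid hormone. Its normalized counts were 30.24 and 85.05 in the controls of pairs 1 and 2 (34 and 68 reads), and 11.31 and 34.02 in their Ctcf-null partners (16 and 28 reads). It was lower within each pair, by 1.34 and 1.30, although Ctcf-null 2 lay above control 1. This was the largest fitted change among the 36 tested genes (log2 fold change -1.32, SE 0.29, limma adjusted p = 0.0039). In DESeq2 with the block Dio3 was not called (adjusted p = 0.17).

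Dlk1, a transmembrane protein related to Notch ligands and the gene at the opposite end of the domain, was at 40.91 and 110.07 in the control libraries and 67.88 and 142.14 in the Ctcf-null ones. It was higher in both pairs without passing (log2 fold change 0.54, 95% interval 0.13 to 0.96, limma adjusted p = 0.078), and it passed with upper-quartile factors. Both genes are usually transcribed from the paternal copy. Their log2 ratio, Dlk1 to Dio3, was higher in Ctcf-null by 2.06 in pair 1 and 1.66 in pair 2. Of the maternal non-coding RNAs, Meg3 was at 7675.88 and 13889.98 against 7284.61 and 11336.1, lower in both pairs (log2 fold change -0.18, limma adjusted p = 0.071). Rian and Mirg, which host small RNAs, had changes of -0.08 and 0.00, with pairs of opposite sign. Rtl1, a gene derived from a retrotransposon, was at 79.16 and 41.28 against 60.81 and 32.8 (log2 fold change -0.35, adjusted p = 0.37).

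The Snrpn domain of chromosome 7, the region whose human counterpart is affected in Prader-Willi and Angelman syndromes, had no called gene among 6. Fold changes lay between -0.08 for Snrpn, a spliceosomal protein gene, and 0.07 for Peg12. The 95% intervals were narrow for the abundant genes, -0.21 to 0.06 for Snrpn and -0.20 to 0.09 for Ndn, the neuronal growth suppressor necdin. Ube3a, a ubiquitin ligase gene expressed from the maternal copy in neurons, had 0.04 (95% interval -0.12 to 0.20). Only 72.7% of the exonic bases of Ube3a and 65.9% of those of Snrpn overlap no other gene's exon. Reads in the rest may not be assigned with certainty, which the intervals do not cover. Magel2, Mkrn3 and Ndn were each higher in Ctcf-null in pair 1 and lower in pair 2. The pairs differed widely here, with Ndn at 2375.7 and 25408.47 normalized counts in the 2 controls and 2518.01 and 22205.68 in the 2 Ctcf-null libraries.

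Neither gene of the Gnas domain and neither of the Igf2r domain passed. Gnas, the stimulatory G protein subunit, was at 50.7 and 131.33 in the control libraries and 53.03 and 102.05 in the Ctcf-null ones, and its antisense RNA Nespas at 32.91 and 35.02 against 30.41 and 41.31. These 2 genes share exonic sequence on opposite strands (988 bases), and Gnas shares 1469 exonic bases with another annotated gene on the opposite strand. The values of Gnas and Nespas are therefore uncertain. Igf2r, the receptor that clears IGF2, was at 656.41 and 446.53 against 697.91 and 477.45 (95% interval -0.11 to 0.30). Airn, the antisense RNA that silences Igf2r on the paternal copy, was at 38.25 and 31.27 against 50.2 and 27.94. Changes of the log2 ratio of Airn to Igf2r had opposite signs in the 2 pairs, 0.30 and -0.25.

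**Figure D2:**
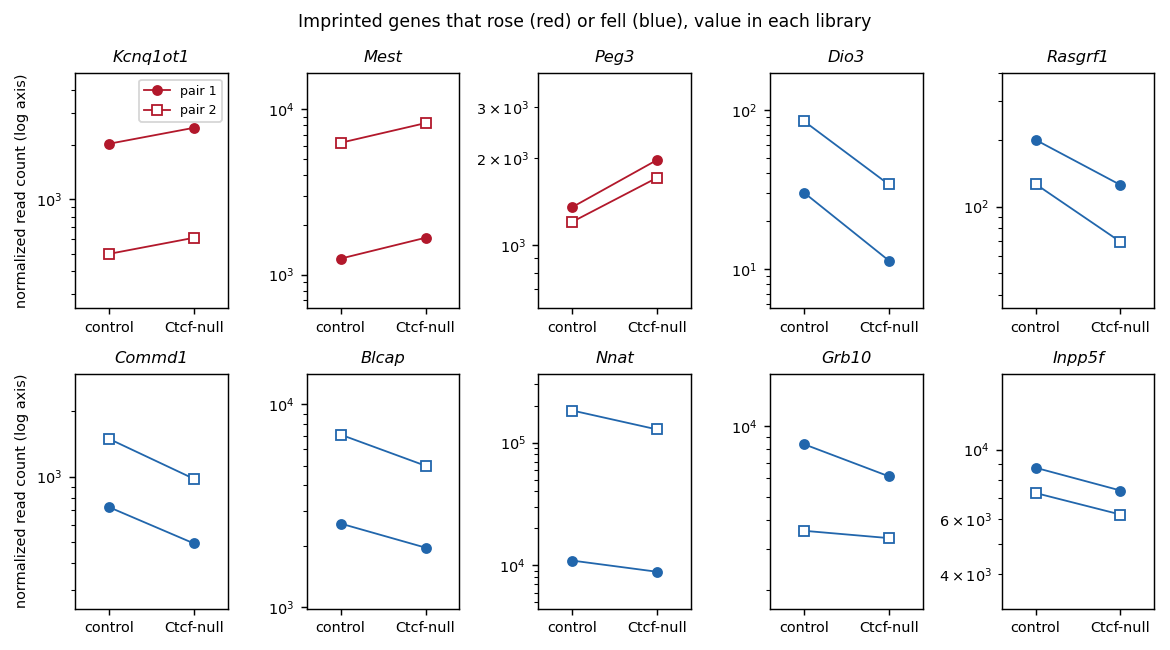
Normalized read count of each imprinted gene that rose or fell, on a log axis, with a line joining control and Ctcf-null of the same pair. Every line goes the same way in both pairs, which a call made on these same pairs favours. The distance between pairs often exceeds the slope, as for Nnat at 10947.25 and 182320.82 in the 2 controls.

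Of the nested couples, Nnat and Blcap both fell, whereas of Commd1 and Zrsr1 only Commd1 passed. Nnat, a small membrane proteolipid of developing neurons, lies in an intron of Blcap on chromosome 2 (157560078 to 157562522, plus strand, within 157556362 to 157571274). Nnat was at 10947.25 and 182320.82 normalized counts in the control libraries and 8875.6 and 127812.07 in the Ctcf-null ones. Within each pair Ctcf-null was lower, but the 2 controls differed 16.7-fold, so the groups overlapped. The log2 fold change was -0.41 (SE 0.06, limma adjusted p = 1.7e-04). Blcap, a gene first described in bladder cancer, was at 2589.17 and 7098.21 against 1970.71 and 4988.32 (log2 fold change -0.45, SE 0.07, adjusted p = 1.2e-04). The log2 ratio of Nnat to Blcap moved by 0.09 in pair 1 and by less than 0.01 in pair 2.

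Commd1, a regulator of copper transport and NF-kB (chromosome 11, 22896136 to 22982382, minus strand), was at 723.12 and 1492.19 in the control libraries and 492.15 and 976.77 in the Ctcf-null ones. It fell by 0.58 (SE 0.09, limma adjusted p = 1.1e-04), with 0.55 and 0.61 in the single pairs. Zrsr1, a splicing factor gene that arose by retrotransposition inside a Commd1 intron and is transcribed from the paternal copy, was at 193.01 and 213.88 against 170.41 and 291.57. It was lower in pair 1 and higher in pair 2 and did not pass. The log2 ratio of Zrsr1 to Commd1 was higher in Ctcf-null by 0.38 and 1.06. They share 412 exonic bases on opposite strands, so reads there cannot be assigned.

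**Figure D3:**
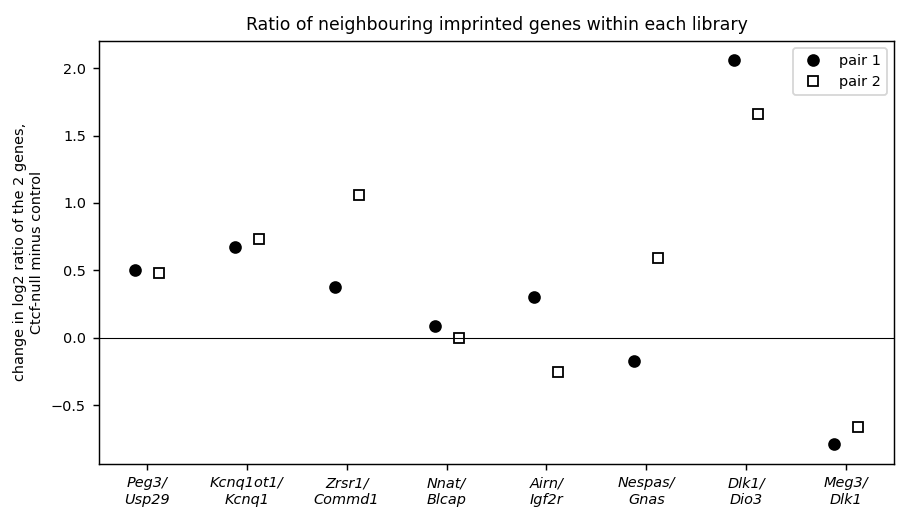
Change in the log2 ratio of the first to the second gene, Ctcf-null minus control, for neighbouring imprinted genes in each pair. Peg3 to Usp29 rose by 0.50 and 0.48, Nnat to Blcap stayed near 0, and Dlk1 to Dio3 had the largest changes, 2.06 and 1.66.

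In the Grb10 domain of chromosome 11, Grb10, an adaptor that dampens insulin and IGF receptor signalling, was at 8388.33 and 3587.25 in the control libraries and 6121.42 and 3338.51 in the Ctcf-null ones. The fall was mostly that of pair 1, at -0.45, with -0.10 in pair 2. The fit gave -0.28 (SE 0.08, limma adjusted p = 0.018). The call was lost when values were rescaled by TMM factors (-0.22, adjusted p = 0.063), with upper-quartile factors in edgeR (-0.18, 0.21) and in DESeq2 with the block (-0.25, 0.30). Its neighbour Ddc, the enzyme that makes dopamine and serotonin, was at 59.59 and 92.56 against 55.86 and 69.25 and did not pass.

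Of the 8 genes taken singly, Mest rose and Rasgrf1 and Inpp5f fell. Mest, a paternally expressed hydrolase gene (chromosome 6, 30723547 to 30748465), was at 1250.56 and 6257.68 in the control libraries and 1670.89 and 8225.99 in the Ctcf-null ones. The pairs gave nearly the same rise, 0.42 and 0.39, on levels that lay far apart between controls. The fit gave 0.41 (SE 0.07, limma adjusted p = 3.5e-04). Mest and the gene Copg2 on the other strand share 912 bases of annotated exon. Rasgrf1, an exchange factor that activates Ras in neurons (chromosome 9, 89909908 to 90026977), was at 200.12 and 126.33 against 125.16 and 69.25. Both Ctcf-null libraries lay below both controls, a separation found downward for 7.64% of all tested genes and among the 36 of the set for Rasgrf1 alone. It fell 1.70-fold (log2 fold change -0.77, SE 0.17, limma adjusted p = 0.0040), and DESeq2 with the block did not call it (adjusted p = 0.18). As at several other imprinted domains, CTCF is known to bind the control region upstream of Rasgrf1 on the unmethylated copy. Whether that binding has a part in the fall was not tested.

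Inpp5f, a phosphoinositide phosphatase gene, was at 8753 and 7268.32 in the control libraries and 7403.41 and 6203.21 in the Ctcf-null ones. Its fall of 0.24 (SE 0.06, limma adjusted p = 0.016) was not called by paired edgeR with TMM factors (-0.18, adjusted p = 0.08) or upper-quartile factors (-0.13, 0.35), by DESeq2 with the block (-0.21, 0.35), or by limma on values rescaled by TMM factors (-0.18, 0.073). The other 5 did not pass. Zdbf2, a paternally expressed gene, was at 313.97 and 216.39 against 351.43 and 249.05, higher in both pairs (95% interval -0.07 to 0.44). Plagl1, a zinc finger factor that regulates other imprinted genes, had 0.11, Slc38a4, an amino acid transporter, -0.18, Impact, which restrains the kinase GCN2, 0.01, and Trappc9, of vesicle trafficking, 0.02.

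By the copy usually transcribed, a grouping made from general knowledge of these genes, 21 are paternal, 8 maternal and 8 differ between tissues or isoforms. All 3 genes that rose are paternal, and so are Dio3, Rasgrf1 and Nnat, which fell. Of the 7 tested genes grouped as maternal only Commd1 was called, and it fell. Which copy each gene uses in this tissue at this age could not be seen, so the grouping may not hold here. The medians were 0.06 for the paternal, -0.28 for the maternal and -0.19 for the remaining genes. Whether these groups differ was not tested. Over the whole set, 9 genes were higher in both pairs (25.0%, against 24.5% of all tested genes). Another 13 were lower in both (36.1%, against 42.9%) and 14 had pairs of opposite sign (38.9%, against 32.5%).

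Levels compared per kilobase of exon spanned several orders of magnitude. Nnat was the highest, at 5985 and 99683 normalized reads per kilobase in controls 1 and 2, followed on the mean of the controls by Ndn (3760.72) and Snrpn (3432.09). Neighbours in this order were often closer than their own controls were to each other. Control 1 had 643 for Ndn and 2506 for Snrpn, the reverse of the order of the means. At the low end stood Phlda2 at 2.79, Zim1 at 5.35 and Gnas at 8.14. The called genes stood between rank 1 (Nnat) and rank 28 (Kcnq1ot1) of 37, so none was among the 9 lowest.

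**Figure D4:**
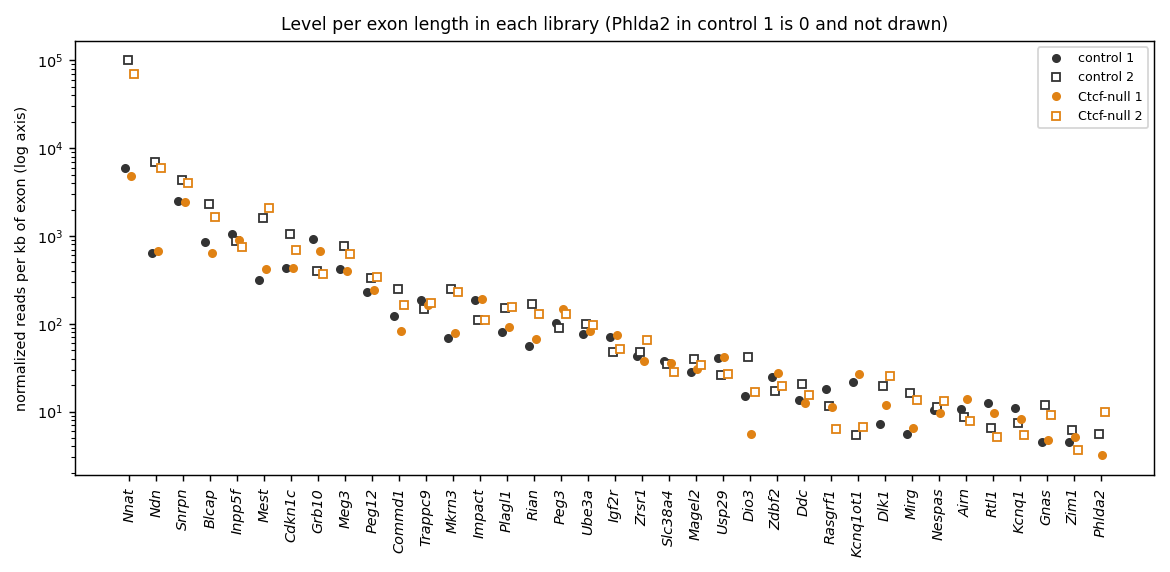
Normalized reads per kilobase of exon for each of the 37 imprinted genes in every library, on a log axis, ordered by the mean of the 2 controls. Filled and open symbols of a gene, pairs 1 and 2, often lie farther apart than black and orange symbols, control and Ctcf-null.

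Over all tested genes 3.67% rose and 10.1% fell, the background for the counts of every list below. Genes that set or keep imprints were read from a separate list of 32, of which 31 were tested. Of these 6 fell and 1 rose, with a median of -0.13. Besides Ctcf the genes that fell were Trim28, the corepressor that ZFP57 recruits (3185.09 and 3148.23 in controls, 2624.07 and 2573.13 in Ctcf-null libraries, -0.29), Uhrf1, the partner of the maintenance methyltransferase (-0.26), H3f3a (-0.41), Mbd3 (-0.36) and Ezh2 (-0.29). Uhrf1 was near the threshold (limma adjusted p = 0.047) and was not called by paired edgeR (adjusted p = 0.11). Kdm1b, a histone demethylase needed to set maternal imprints in oocytes, had 489.19 and 495.31 against 620.13 and 752.01 and rose by 0.47 (SE 0.10, limma adjusted p = 0.0035). Of 49 tested other imprinted genes, the 2 clusters left out above included, 4 rose and 8 fell, with a median of -0.06. Asb4 rose by 1.53 (SE 0.08) and Peg10 by 0.85 (SE 0.15), beside the 0.53 of Peg3, while Sgce, of the same cluster as Peg10 and Asb4, fell by 0.31 (SE 0.08); these differences between genes were not tested. Of 32 tested neighbouring genes 6 fell, with a median of -0.09; Cd81 and Nap1l4, which fell, are in both of these lists. Wars and Slc25a29, beside the Dlk1-Dio3 domain, fell by 0.30 and 0.57.

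Other cell types can carry imprinted transcripts, and in whole tissue fewer cells of a type and less RNA per cell cannot be told apart. Of 8 telencephalic markers 6 fell and 0 rose (median -0.40), with summed levels of 6412.9 and 23359.7 normalized counts in the control libraries and 4849.3 and 15605.2 in the Ctcf-null ones. Of 6 neuronal markers 2 fell, Tubb3 by 0.52 and Gap43 by 0.45, while Stmn2, Snap25, Map2 and Dcx had -0.04, -0.05, 0.07 and 0.16 (median of the 6 -0.05), and paired edgeR called Dcx higher (adjusted p = 0.033). The neuronal sum was 315738.5 and 231281.6 against 230060.7 and 186542.1, of which Tubb3 alone was 237901.71 and 150029.28 against 151648.24 and 114976.8. Of 6 progenitor markers 1 fell, Hes5 (0.57), while Sox2, Mki67, Vim, Nes and Pax6 had -0.18, -0.18, -0.13, -0.01 and 0.21 (median of the 6 -0.15). Paired edgeR called Pax6 higher (adjusted p = 0.02). The progenitor sum was 8599.1 and 41064.5 against 8276.7 and 36998.1, of which Vim alone was 2880.9 and 32023.87 against 2706.8 and 28620.28. Of 8 choroid plexus markers 2 rose, Ttr by 0.47 and Otx2 by 0.48 (median of the 8 0.22), with sums of 73676.9 and 25325.9 against 96418.3 and 36470.9. Of 6 microglial markers 1 rose, C1qb by 0.47 (median of the 6 0.30), with sums of 1022.9 and 2564.1 against 1278.4 and 3084.6. Paired edgeR also called P2ry12 higher (adjusted p = 0.037). Of the 8 tested of 14 diencephalic and hypothalamic markers 1 fell, Lhx9 (-0.41), while the median of the 8 was 0.23. Otp, Gbx2, Fezf1, Tcf7l2, Pomc and Sim1 had 1.09, 1.05, 0.55, 0.24, 0.22 and 0.06, and Nkx2-1 -0.62, without passing. Paired edgeR called Tcf7l2 higher (adjusted p = 0.038). The sums over the 14 were 1483.6 and 2116.3 against 1496.2 and 2154. Of 12 meningeal and vascular markers 1 fell, Pecam1 (not called by paired edgeR, adjusted p = 0.10), with sums of 5286.8 and 11727.4 against 4938.4 and 11909.5. The 6 red blood cell genes did not pass and summed to 1341428.8 and 573299 against 923183.8 and 623470.9. No marker was at 0 in every library. The part of cell composition in the results for the imprinted genes was not tested.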

How the data were processed

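RNA of 4 telencephalon libraries was measured. The authors deposited normalized read counts, a signal per gene without division by length, and log2 fold changes per pair, per the file headers. STAR 2.5.3, DESeq2 and mm10 are named, per the submitters' processing notes. Gene counter, annotation release and strand setting: not given in the sources used here. Within 0.005, at least 99.972% of nonzero values per library were whole multiples of 1 step, so reads could be recovered.

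The main test was limma 3.58.1 (trend on the mean) run on log2(normalized read count + 1), with genotype and pair as terms, for 22158 genes kept by filterByExpr in edgeR 4.0.16, in R 4.3.3. Calls have a two-sided Benjamini-Hochberg adjusted p under 0.05. The paired edgeR quasi-likelihood test with TMM factors on recovered reads and DESeq2 1.42.0 were alternatives. The listed genes, their domains and the other lists were chosen with earlier results of these data known. Every listed gene is accounted for, and those called in the main test are given per library. Genes outside the lists are named only where called.

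The submitters' design text speaks of 2 pairs, which is where the pairing comes from. Across the tested genes, which are not replicates, libraries of the same number correlated at r = 0.987 and 0.984, and others at 0.887 to 0.903. Deviations from the group means correlated at 0.923 within numbers. This fit has 1 residual degree of freedom, to which 18.1 are added from other genes. On data simulated for Ctcf-null against control with 21141 genes run, it found 64.2% of changes of 1.5-fold, 86.6% of 2-fold and 95.5% of 4-fold, and made 7 false calls. The simulated spread followed the fitted trend only, so these rates are a best case. Gene positions and exon lengths come from GENCODE vM21 on GRCm38, the assembly also called mm10. Promoter sequences come from RefSeq on GRCm38.p6, where 31 of the 37 genes have an entry. The identifiers of all 37 genes were matched without their version.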

Additional observations from a re-analysis of the deposited data

How the results depend on the processing

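Without the replicate block, limma and edgeR called 0 imprinted genes and 0 of all genes in either direction. At an unadjusted p under 0.05 these fits held 170 and 174 genes, 0 of them imprinted genes of the list. With 1 library left out and no block, limma called 0 to 0 imprinted genes higher and 0 to 0 lower, and 0 to 0 of all genes higher and 0 to 2 lower (103 to 302 at an unadjusted p under 0.05). In those fits the pairs are unbalanced and the lone library is assumed to vary like the others. DESeq2 with the block called 3 imprinted genes lower (Blcap, Commd1 and Nnat) and 2 higher (Mest and Peg3), and 289 of all genes higher and 543 lower. Upper-quartile factors gave 1358 higher and 1069 lower of all genes, and values rescaled by TMM factors 1360 lower. In the fits with 1 library left out and no block, 2 to 3 of the 10 called genes changed direction. The 10 genes kept their direction in the 109 other values with a test, and the call in 79 of them. All of these values come from the same 4 libraries, and limma without the block has the same estimates by design. The call was lost in 20 of 20 values without the block and in 10 of 89 with it. In the single pairs, where no call can be made, the direction held in 20 of 20 values. The 10 genes were called on these same pairs, so this was largely set in advance and is no separate support. Dio3 could not be tested with a minimum mean of 50. Counts of calls have no value for a single pair, which leaves no residual degree of freedom. The low counts of Dio3, Phlda2, Nespas and Kcnq1 limit their precision. The causes of these changes were not tested.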

Other observations

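Across the 36 listed genes with reads in every library, the log2 ratio of control 2 to control 1 was lower for genes with longer exons (Pearson r = -0.52, Spearman rho = -0.45, a description over genes that share their libraries). Over 21891 tested genes the same correlations were 0.05 and 0.02. The ends of this range were Nnat, 16.7-fold higher in control 2 with 1829 exonic bases, and Kcnq1ot1, 4.05-fold higher in control 1 with 93092. The 2 Ctcf-null libraries differed alike, 14.4-fold for Nnat and 4.04-fold for Kcnq1ot1.

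Gnas, which is widely expressed in brain, ranked 35 of 37 by level per kilobase of exon, at 8.14 normalized reads in the mean of the controls. Of its annotated exonic bases 78.0% overlap no other gene's exon.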
